A study of Saccharomyces cerevisiae with 12 samples.

Results

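The general stress response genes of budding yeast are described here in cells with a doxycycline-repressible RAP1 gene. They were named from outside knowledge of Msn2 and Msn4, as genes of stress and starvation that depend largely on these factors, leaving aside chaperone, trehalose and glycogen genes. The choice was made with earlier results of these data known, so it was not blind to them. Of the 39 genes named, 36 were found by symbol among the 5085 genes of the deposited tables. The levels of ALD3, HOR2 and FMP45 were not analysed here, while their promoter sequences were counted among the 39. All 36 were tested at each dose, and none was lost to a filter on low levels.

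RNA sequencing of log-phase cultures covered 12 samples in 4 groups of 3, which received 0.01, 0.1 or 0.5 µg/mL doxycycline or, as control, none that the labels mention. Every group, the control included, is the single strain TH_5234, of mating type MATa with the mutations his3-1, leu2-0 and met15-0. In this strain the RAP1 promoter is replaced (pRAP1::kanR-tetO7-TATA) and the tetracycline-controlled activator sits at URA3 (URA3::CMV-tTA), so that the control is not a cell with the native RAP1 promoter. Rap1 is an essential DNA-binding protein of ribosomal protein gene promoters and telomeres, and doxycycline is used to turn such a promoter down. RAP1 mRNA itself was called lower in the 0.5 µg/mL group alone (22.0 FPKM against 31.5 FPKM in the control, q = 0.00764 per the authors' deposited table). On the log2 scale, doxycycline over control, this change was -0.52. It lay between the lower quartile (-0.64) and the median (-0.30) of all tested genes, of which 38.9% were called lower in that group. Whether RAP1 fell beyond this wider shift was not tested. The q of RAP1 in the 0.01 and 0.1 µg/mL groups was 0.827 and 0.935, again as deposited by the authors.

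Each level below is FPKM (fragments per kilobase of transcript, scaled for depth), pooled by the authors over the 3 samples of a group, so that no value per sample, no SD and no depth can be given. Whether the 3 samples came from separate cultures is not stated, so that a q may measure technical spread. A gene is called higher or lower where the authors' q, their p-value adjusted over the table, was below 0.05. Fold changes are the doxycycline level over the control level of the same table, on the log2 scale without a pseudocount. Where 3 values are given without a dose, they follow the doses 0.01, 0.1 and 0.5 µg/mL. Each dose was set against the same control samples, so the 3 comparisons are not independent of each other.

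Msn2 and Msn4 are zinc-finger activators that bind the stress response element (STRE), a short promoter sequence with the core AGGGG. In growing cells protein kinase A keeps them largely out of the nucleus, and stress or starvation lets them enter it. Their targets include membrane and cell wall proteins, enzymes of redox and carbon metabolism, and vacuolar proteases, which protect cells while growth slows.

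Promoter sequences of 7 members are shown, chosen because their responses differ. So chosen, they cannot show how response goes with the number of cores. SOL4, GAD1, DDR2 and STF2 were called higher at all 3 doses, HSP12 at the lowest dose, TMA10 (the duplicate of STF2) at no dose, and SPG4 was called lower at all 3. Each line is the 200-base stretch with the most STRE cores that ends more than 100 bases before the start codon, read 5′ to 3′ on the gene's strand from the RefSeq R64 genome. Capitals mark AGGGG or its reverse complement CCCCT, of which the SPG4 stretch holds none.
SOL4 (chrVII:985672-985871, plus strand): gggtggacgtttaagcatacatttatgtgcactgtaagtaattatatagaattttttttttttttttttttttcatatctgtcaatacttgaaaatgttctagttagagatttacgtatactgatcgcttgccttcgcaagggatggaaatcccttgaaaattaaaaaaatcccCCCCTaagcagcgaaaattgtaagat
GAD1 (chrXIII:770501-770700, plus strand): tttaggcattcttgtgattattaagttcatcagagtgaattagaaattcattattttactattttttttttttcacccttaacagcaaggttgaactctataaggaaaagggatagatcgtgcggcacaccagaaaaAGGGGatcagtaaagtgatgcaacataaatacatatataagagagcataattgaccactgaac
DDR2 (chrXV:231856-232055, minus strand): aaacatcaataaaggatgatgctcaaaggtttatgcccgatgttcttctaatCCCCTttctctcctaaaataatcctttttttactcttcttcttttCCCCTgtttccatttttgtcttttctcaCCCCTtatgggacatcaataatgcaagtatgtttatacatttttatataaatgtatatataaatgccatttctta
HSP12 (chrVI:106876-107075, plus strand): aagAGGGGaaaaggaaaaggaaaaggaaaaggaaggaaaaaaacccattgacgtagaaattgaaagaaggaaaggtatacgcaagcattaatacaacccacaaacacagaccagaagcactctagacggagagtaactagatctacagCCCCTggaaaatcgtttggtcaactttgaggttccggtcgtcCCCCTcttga
STF2 (chrVII:508465-508664, minus strand): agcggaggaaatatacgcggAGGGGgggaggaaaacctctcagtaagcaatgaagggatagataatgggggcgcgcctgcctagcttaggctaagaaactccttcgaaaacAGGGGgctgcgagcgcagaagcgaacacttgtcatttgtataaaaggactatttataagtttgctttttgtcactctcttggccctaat
TMA10 (chrXII:783528-783727, minus strand): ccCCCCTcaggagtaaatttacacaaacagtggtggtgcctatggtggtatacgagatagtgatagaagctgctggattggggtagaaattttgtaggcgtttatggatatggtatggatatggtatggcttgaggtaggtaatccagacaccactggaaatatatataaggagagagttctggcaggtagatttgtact
SPG4 (chrXIII:482714-482913, plus strand): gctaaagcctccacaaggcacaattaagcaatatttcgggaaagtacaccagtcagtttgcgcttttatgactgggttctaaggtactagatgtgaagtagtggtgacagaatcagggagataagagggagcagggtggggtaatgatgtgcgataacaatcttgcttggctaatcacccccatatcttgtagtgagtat

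Within 600 bases before the start codon, 34 of the 39 members had at least 1 core, or 87.2%, while 39.7% of 6005 genes of the R64 annotation had one. At least 3 cores were found for 11 of the 39 members (28.2%) and for 2.43% of all genes. Members without a core in this window were MSN4, GRE1, ALD2, SPG1 and SPG4. A match is a match of letters and does not show that a factor binds there.

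Members were called higher far more often than lower at each dose, 3 of them fell at every dose, and 7 passed the test at no dose. At 0.01 µg/mL 21 of 36 members were called higher, or 58.3%, while 8.75% of all 5049 tested genes were. Lower calls were made for 3 of the 36 members at that dose, against 15.4% of all tested genes. At 0.1 µg/mL 22 of 36 members were called higher (61.1%, against 17.6% of 5054 tested genes) and 3 lower (8.33%, against 20.4%). At 0.5 µg/mL 17 were called higher (47.2%, against 7.49% of 5047 tested genes) and 5 lower (13.9%, against 38.9%).

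The median log2 fold change of the members was 0.54, 0.76 and 0.37, while that of all tested genes was -0.08, -0.03 and -0.30. The median of all genes was thus lowest at 0.5 µg/mL, and relative to it the members' median was 0.62, 0.79 and 0.68. Members ranged from -2.05 to 2.53 at 0.01 µg/mL, from -2.35 to 2.83 at 0.1 µg/mL and from -2.43 to 2.12 at 0.5 µg/mL. The smallest q that a table holds was 0.000608, 0.000329 and 0.000273 in the authors' deposited tables, and 16, 22 and 16 members stood at it.

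Rises of at least 2-fold were also counted. With at least 2-fold added to the call, 12, 14 and 11 members were higher, against 2.32%, 4.23% and 2.48% of all tested genes. On the same rule 2, 3 and 3 members were lower, against 1.92%, 4.47% and 10.1% of all tested genes. Taken as 2-fold from the median of all genes instead, 15, 14 and 16 members were higher, against 2.63%, 4.35% and 4.24% of all tested genes, so the dose with the most members depends on this scale. On that rule 2, 3 and 2 members were lower, against 1.33%, 4.14% and 4.06%. A q below 0.01 left 3 members lower at 0.5 µg/mL (background 29.8%).

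**Figure D1:**
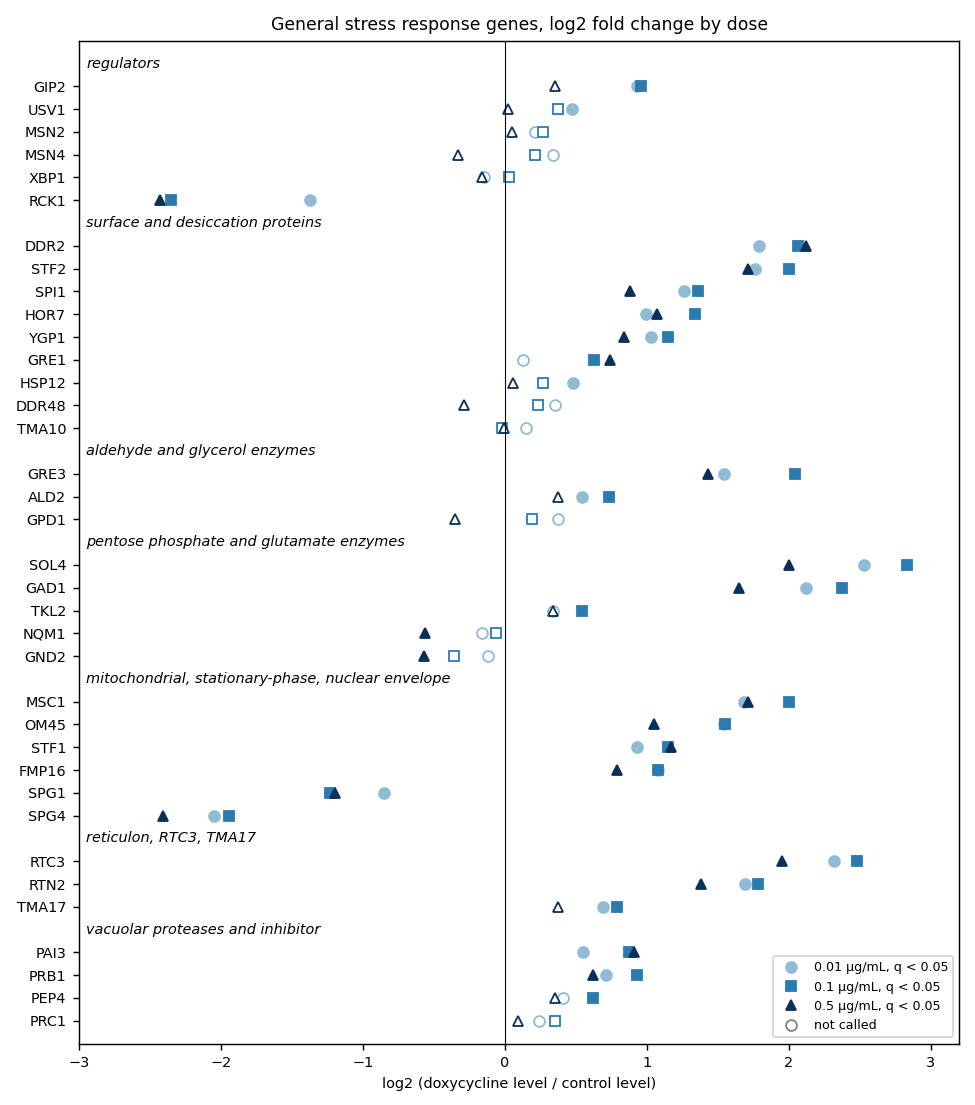
Log2 fold change (doxycycline over control) of the 36 members, in rows grouped by role, with circles for 0.01, squares for 0.1 and triangles for 0.5 µg/mL. Filled symbols have the authors' q below 0.05. SOL4 reaches 2.83 at 0.1 µg/mL, while RCK1, SPG1 and SPG4 lie left of 0 at all 3 doses.

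Levels of the members spanned a wide range in the control, from TKL2 at 13.5 FPKM to HOR7 at 11730 FPKM, with a median of 106 FPKM against 82.0 FPKM over all genes. Summed over the 36 members, the level was 44404 FPKM at 0.01 µg/mL against 21222 FPKM in the control. At 0.1 µg/mL the sum was 53094 FPKM against 21160 FPKM in the control, and at 0.5 µg/mL it was 44448 FPKM against 21135 FPKM in the control. As a share of the FPKM of all genes this was 2.47%, 2.80% and 2.66% in the doxycycline groups and 1.09% in the control. HOR7 alone made up 52.5% to 55.7% of the members' sum in the doxycycline groups and 55.3% in the control, so this 1 gene weighs heavily in the sum.

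**Figure D2:**
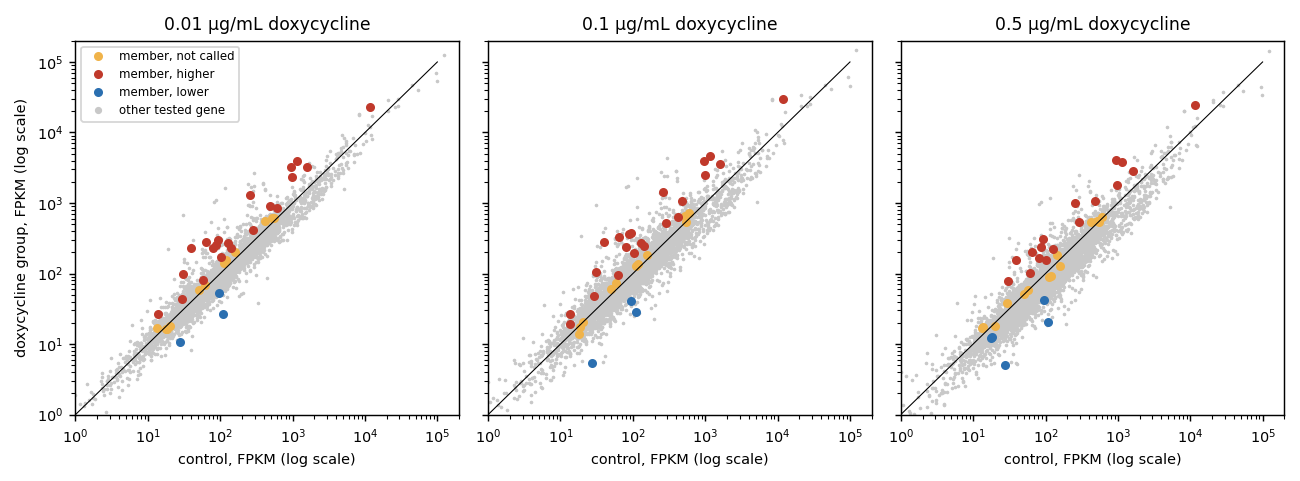
Pooled level of each tested gene in the doxycycline group (vertical axis) against its level in the control (horizontal axis), both in FPKM on log scales, with 1 panel for each dose. Members called higher are red, members called lower blue, members not called orange and other genes grey, and the line marks equal levels. HOR7, at 11730 FPKM in the control of the 0.01 µg/mL table, is the member farthest to the right.

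The mRNAs of both activators themselves did not pass the test at any dose. MSN2 stood at 58.0, 60.3 and 51.7 FPKM in the doxycycline groups, against 49.9 to 50.1 FPKM in the control, with log2 fold changes of 0.21, 0.27 and 0.05 (q = 0.376, 0.197 and 0.854 per the authors' deposited tables). MSN4 stood at 141, 129 and 88.3 FPKM against 111 to 112 FPKM in the control, at 0.34, 0.21 and -0.33 on the log2 scale (q = 0.176, 0.401 and 0.157 per the authors' deposited tables). Without a value per sample no interval can be given for these differences, and the nuclear entry of the proteins was not measured.

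Among the other regulators, GIP2 was called higher at 2 doses and RCK1 fell at all 3. GIP2 encodes a putative regulatory subunit of the phosphatase Glc7 with a part in glycogen metabolism. It stood at 26.3, 26.8 and 17.5 FPKM against 13.7 to 13.8 FPKM in the control, with log2 fold changes of 0.93, 0.96 and 0.35, of which the last had q = 0.156 in the authors' deposited table. USV1, a putative zinc-finger factor, was called at 0.01 µg/mL (80.3 FPKM against 57.8 FPKM in the control, log2 fold change 0.47, q = 0.0195 per the authors' deposited table). At the higher doses USV1 stood at 74.6 and 58.3 FPKM against 57.5 to 57.6 FPKM in the control, or 0.37 and 0.02 on the log2 scale, with q = 0.0610 and 0.942 in the authors' deposited tables. XBP1, a transcriptional repressor of stress and quiescence, was not called, at -0.15, 0.03 and -0.16.

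RCK1 encodes a protein kinase of the oxidative stress response. Its level was 10.7, 5.39 and 5.09 FPKM in the doxycycline groups against 27.4 to 27.6 FPKM in the control. The fall was 2.58-fold, 5.10-fold and 5.39-fold, with log2 fold changes of -1.37, -2.35 and -2.43 and the smallest q of each of the authors' deposited tables.

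Genes for membrane, wall and desiccation proteins mostly rose, and 3 of them were called at no more than 1 dose. Of the 9 with a level, 6 were called higher at each dose and 0 lower, with medians of 0.99, 1.15 and 0.84. DDR2, a multi-stress gene, stood at 3285, 3954 and 4114 FPKM against 948 to 951 FPKM in the control, a rise of 3.45-fold, 4.17-fold and 4.34-fold. STF2, of desiccation resistance, stood at 3932, 4630 and 3783 FPKM against 1154 to 1159 FPKM in the control (3.39-fold, 4.01-fold and 3.28-fold). SPI1 encodes a wall protein anchored by a lipid and linked to weak acid resistance. It stood at 2352, 2520 and 1801 FPKM against 981 to 985 FPKM in the control, with log2 fold changes of 1.26, 1.36 and 0.88.

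HOR7, the most abundant member, stood at 23316, 29565 and 24604 FPKM against 11682 to 11730 FPKM in the control (0.99, 1.34 and 1.07 on the log2 scale). YGP1, a secreted glycoprotein gene of nutrient limitation, was at 1.03, 1.15 and 0.84 and was called at all 3 doses. GRE1, a hydrophilin gene, had log2 fold changes of 0.13, 0.63 and 0.74 and was called at the upper 2 doses (q = 0.693, 0.00114 and 0.000273 per the authors' deposited tables).

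HSP12, a membrane-stabilizing protein gene and a common reporter of Msn2 and Msn4 activity, was called at the lowest dose alone. It stood at 840, 723 and 625 FPKM against 599 to 601 FPKM in the control, with log2 fold changes of 0.48, 0.27 and 0.06 (q = 0.0497, 0.243 and 0.827 per the authors' deposited tables). The call at 0.01 µg/mL lay just inside the threshold. DDR48, a DNA damage-responsive gene with internal repeats, was at 0.35, 0.23 and -0.29 and was not called. TMA10, a ribosome-associated protein gene, was at 0.15, -0.02 and -0.01 and was not called. HSP12, HOR7, YGP1, GRE1, DDR48 and TMA10 were singled out after their values were seen.

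Enzymes of aldehyde and glycerol metabolism gave 1 large rise. GRE3, an aldose reductase gene, stood at 255, 360 and 235 FPKM against 87.5 to 87.8 FPKM in the control (2.91-fold, 4.11-fold and 2.69-fold). ALD2, an aldehyde dehydrogenase gene, was called higher at 0.01 and 0.1 µg/mL with log2 fold changes of 0.54, 0.73 and 0.37, at 43.0, 48.6 and 38.1 FPKM against 29.4 to 29.5 FPKM in the control, and at 0.5 µg/mL its q was 0.0667 in the authors' deposited table. The coding sequence of ALD2 is 91.8% identical to that of ALD3, so that reads of ALD3 could be counted to it. GPD1, the glycerol-3-phosphate dehydrogenase gene of osmotic stress, stood at 154, 136 and 93.5 FPKM against 119 to 120 FPKM in the control. Its log2 fold changes of 0.37, 0.19 and -0.35 were not called (q = 0.208, 0.496 and 0.192 per the authors' deposited tables).

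The stress forms of pentose phosphate enzymes did not move together. SOL4, a 6-phosphogluconolactonase gene, had the highest fold change of all members at 0.01 and 0.1 µg/mL. It stood at 227, 281 and 157 FPKM against 39.3 to 39.5 FPKM in the control (log2 fold changes of 2.53, 2.83 and 2.00, or 7.13-fold at 0.1 µg/mL). GND2, for the next enzyme of the pathway, was instead at 16.5, 13.9 and 12.0 FPKM against 17.8 to 17.9 FPKM in the control, with log2 fold changes of -0.12, -0.36 and -0.57. NQM1, a transaldolase gene, stood at 16.5, 17.7 and 12.5 FPKM against 18.4 to 18.5 FPKM in the control, at -0.16, -0.06 and -0.56 on the log2 scale. GND2 and NQM1 were called lower at 0.5 µg/mL (q = 0.0115 and 0.0263 per the authors' deposited table), where all genes had a median of -0.30, and relative to it both stood at -0.26. TKL2, a transketolase gene, stood at 17.1, 19.5 and 17.0 FPKM against 13.4 to 13.5 FPKM in the control. Its log2 fold changes were 0.34, 0.54 and 0.34, and it was called at 0.1 µg/mL (q = 0.00938 per the authors' deposited table). GAD1, which converts glutamate to GABA, stood at 280, 332 and 202 FPKM against 64.1 to 64.4 FPKM in the control (4.36-fold, 5.18-fold and 3.15-fold).

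The 6 members grouped as mitochondrial and stationary-phase proteins were all called at every dose, 4 higher and 2 lower. MSC1, linked to meiotic recombination, stood at 299, 372 and 305 FPKM against 92.9 to 93.3 FPKM in the control (3.21-fold, 3.99-fold and 3.28-fold). OM45, of the mitochondrial outer membrane, stood at 234, 235 and 166 FPKM against 80.1 to 80.4 FPKM in the control (2.91-fold, 2.94-fold and 2.07-fold). STF1, which stabilizes the inhibitor of the mitochondrial ATP synthase, was at 0.93, 1.15 and 1.17 on the log2 scale, and FMP16 at 1.08, 1.08 and 0.79.

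SPG4 and SPG1, both needed for survival of heat in stationary phase, went the other way. SPG4 stood at 26.4, 28.5 and 20.6 FPKM against 109 to 110 FPKM in the control, a fall of 4.15-fold, 3.84-fold and 5.31-fold. SPG1 stood at 53.4, 40.6 and 41.5 FPKM against 95.5 to 96.0 FPKM in the control, a fall of 1.80-fold, 2.35-fold and 2.30-fold (q = 0.00969, 0.000329 and 0.000273 per the authors' deposited tables). With RCK1 they were the 3 members called lower at all doses.

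RTC3 and RTN2 were called higher at all 3 doses, and TMA17 at 0.01 and 0.1 µg/mL. RTC3, of RNA metabolism, stood at 1286, 1431 and 995 FPKM against 257 to 258 FPKM in the control (4.98-fold, 5.56-fold and 3.87-fold). RTN2, a reticulon gene of endoplasmic reticulum tubules, stood at 98.6, 104 and 79.5 FPKM against 30.5 to 30.6 FPKM in the control (3.22-fold, 3.43-fold and 2.61-fold). TMA17, a proteasome assembly chaperone gene, stood at 231, 246 and 184 FPKM against 142 to 143 FPKM in the control. Its log2 fold changes were 0.69, 0.79 and 0.37, and its q at 0.5 µg/mL was 0.0808 in the authors' deposited table.

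Vacuolar proteases and the inhibitor of proteinase A stayed below 2-fold. PRB1, the proteinase B gene, stood at 169, 196 and 158 FPKM against 103 FPKM in the control, with log2 fold changes of 0.71, 0.93 and 0.62, all called. PAI3, the inhibitor gene, stood at 420, 525 and 538 FPKM against 286 to 288 FPKM in the control. Its log2 fold changes were 0.55, 0.87 and 0.91, and it was called at all 3 doses. PEP4, the proteinase A gene, stood at 557, 642 and 533 FPKM against 419 to 420 FPKM in the control. Its log2 fold changes were 0.41, 0.62 and 0.35, and it was called at 0.1 µg/mL (q = 0.0104 per the authors' deposited table). PRC1, the carboxypeptidase Y gene, was at 0.24, 0.35 and 0.09 and was not called.

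On the log2 scale without centring, most members peaked at the middle dose. Of the 26 members with a log2 fold change above 0 at every dose, 20 had their highest at 0.1 µg/mL, 2 at 0.01 µg/mL and 4 at 0.5 µg/mL. In 19 of these 26 the lowest of the 3 values was at 0.5 µg/mL, where the median of all genes was also lowest. DDR2, GRE1, STF1 and PAI3 were the 4 whose value climbed with each dose. This order depends on the scale. Relative to the median of all genes, a scale chosen here after seeing the data, 12 of the same 26 were highest at 0.1 µg/mL, 5 at 0.01 µg/mL and 9 at 0.5 µg/mL. On that scale 10 of them were lowest at 0.5 µg/mL and 15 at 0.01 µg/mL, and MSN2, HOR7, TKL2, PEP4 and PRC1 joined the members that climbed with each dose, which then numbered 9. The tables were scaled separately (the median ratio of their control columns was 0.997 and 0.996 to that of the 0.01 µg/mL table), and differences between doses were not tested.

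The number of STRE cores was set beside the response as a description. Of the 36 members with a level, 5 had no core in the 600 bases, with medians of 0.13, 0.21 and -0.33, and 13 had 1 core, with medians of 0.93, 1.08 and 0.79. The 7 members with 2 cores had medians of 0.35, 0.35 and 0.09, and the 11 with 3 or more had 0.55, 0.79 and 0.37. The highest medians thus belonged to the members with 1 core, and the lowest to those with none. SOL4 and GAD1, with mean log2 fold changes of 2.45 and 2.05 over the doses, had 1 core each, in the stretches printed above. HSP12, USV1 and XBP1 had 5 cores each, more than any other member, and had mean log2 fold changes of 0.27, 0.29 and -0.09. This contrast depends on the window. Between 250 bases before and 50 after the start, a window chosen after seeing the data, USV1 and XBP1 had 0 cores. HSP12 had 2 there, and SOL4 and GAD1 had 1 each.

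**Figure D3:**
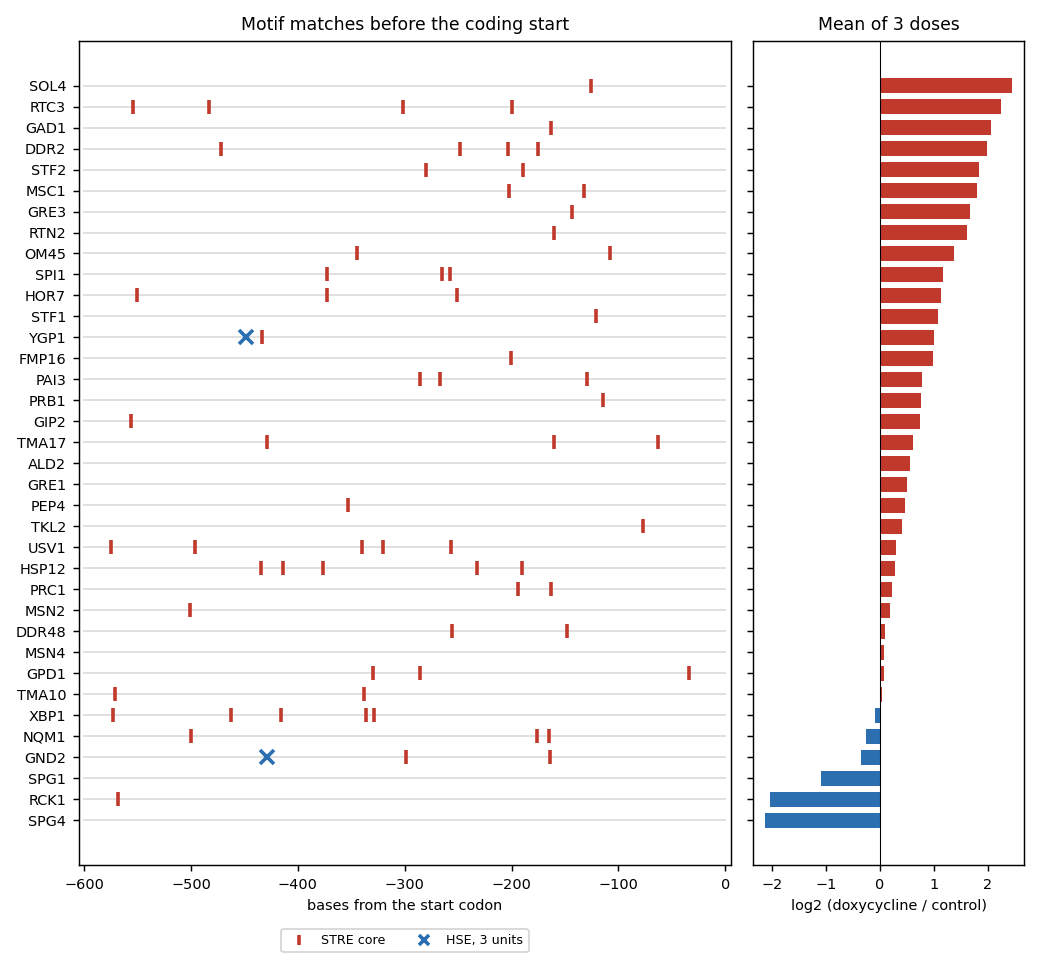
Left, positions of STRE cores (red bars) and of 3-unit heat shock elements (blue crosses) in the 600 bases before the start codon of the 36 members, in bases from the start codon. Right, the mean log2 fold change over the 3 doses, which also orders the rows from SOL4 at 2.45 down to SPG4 at -2.13; HSP12, USV1 and XBP1 carry 5 cores each and lie near 0.

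Heat shock elements, the sites of the activator Hsf1, were searched in the same windows. The 3-unit form, TTCNNGAA followed by NNTTC or GAANNTTC followed by NNGAA, was found in 600 bases before 2 of 39 members (YGP1 and GND2), or 5.13%, and before 1.70% of all genes. The 2-unit form, TTCNNGAA or GAANNTTC, which the longer form contains, stood before 41.0% of members and 41.1% of all genes. The Rap1 consensus with at most 1 mismatch was found before 3 of 39 members, which were XBP1, HSP12 and GPD1, or 7.69%, and before 3.45% of all genes. These counts depend on the window. Between 250 bases before and 50 after the start, 0 of 39 members had the Rap1 consensus, against 1.56% of all genes. The 3-unit heat shock element was found there for 0 of 39 members, against 0.782% of all genes. That window was chosen after seeing the data. All motifs were searched on both strands.

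Many members are stress-induced copies of a gene duplicated in the ancestor of this yeast, and 12 members could be set beside a paralog that is not a member. The paralogs are the forms used in growth in several of these pairs. Of the 12 paralogs, 2, 3 and 3 were called higher and 0, 0 and 3 lower, against 8.75%, 17.6% and 7.49% of all tested genes higher and 15.4%, 20.4% and 38.9% lower. Their medians were 0.09, 0.05 and -0.21. The 3 of 12 called lower at 0.5 µg/mL were a smaller share than the 38.9% of all tested genes, and relative to the median of all genes the paralogs' median there was 0.09. On rounded values, the member's log2 fold change was above its paralog's in 8, 6 and 5 of the 12 pairs.

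In the SOL pair, SOL3 was at log2 fold changes of -0.30, -0.23 and -0.49, against 2.53, 2.83 and 2.00 for SOL4. The level of SOL4 was thereby 1.30, 1.54 and 1.03 times that of SOL3 in the doxycycline groups and 0.183 times in the control. RTN1 was at -0.22, -0.24 and -0.50, and stood at 12.9, 11.9 and 13.1 times the level of RTN2 in the doxycycline groups against 48.3 times in the control. RTN1 was called at no dose and SOL3 at 0.5 µg/mL, as lower. For STF1 the paralog INH1, singled out after its values were seen, was at 0.12, -0.11 and -0.21 and was not called.

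The growth forms in the rest of the pentose phosphate pathway are given for comparison. GND1 was at -0.25, -0.24 and -0.54 and TKL1 at -0.28, -0.28 and -0.56, and with SOL3 they were the paralogs called lower at 0.5 µg/mL, where the median of all genes was -0.30 and 38.9% of them were called lower. TAL1 beside NQM1 was at 0.28, 0.43 and 0.23 and was not called. Level ratios changed little in the GND pair, where GND1 stood at 18.2, 21.8 and 20.5 times the level of GND2 in the doxycycline groups and 20.1 times in the control. GPD2 beside GPD1 was at 0.09, 0.19 and -0.17, and RGM1 beside USV1 at -0.05, -0.02 and -0.22, neither of them called.

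STF2 and TMA10, both members, parted as well. The level of STF2 was 6.48, 8.60 and 6.96 times that of TMA10 in the doxycycline groups and 2.11 times in the control. In contrast, SED1, the abundant wall protein gene beside SPI1, rose with its partner at 0.94, 1.17 and 1.33, and PIG2 beside GIP2 was at 1.35, 1.57 and 0.94, called at all 3 doses. SIP18 beside GRE1 was at 0.45, 0.84 and 1.17 and was called at the upper 2 doses. RCK2 was at 0.08, 0.11 and -0.31 and was not called, while RCK1 fell. The coding sequences of the pairs just named were 32.9% to 66.7% identical over the longer one. Of the pairs given before, GND2 and GND1 were 78.6% identical, TKL2 and TKL1 69.6%, and NQM1 and TAL1 68.5%.

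**Figure D4:**
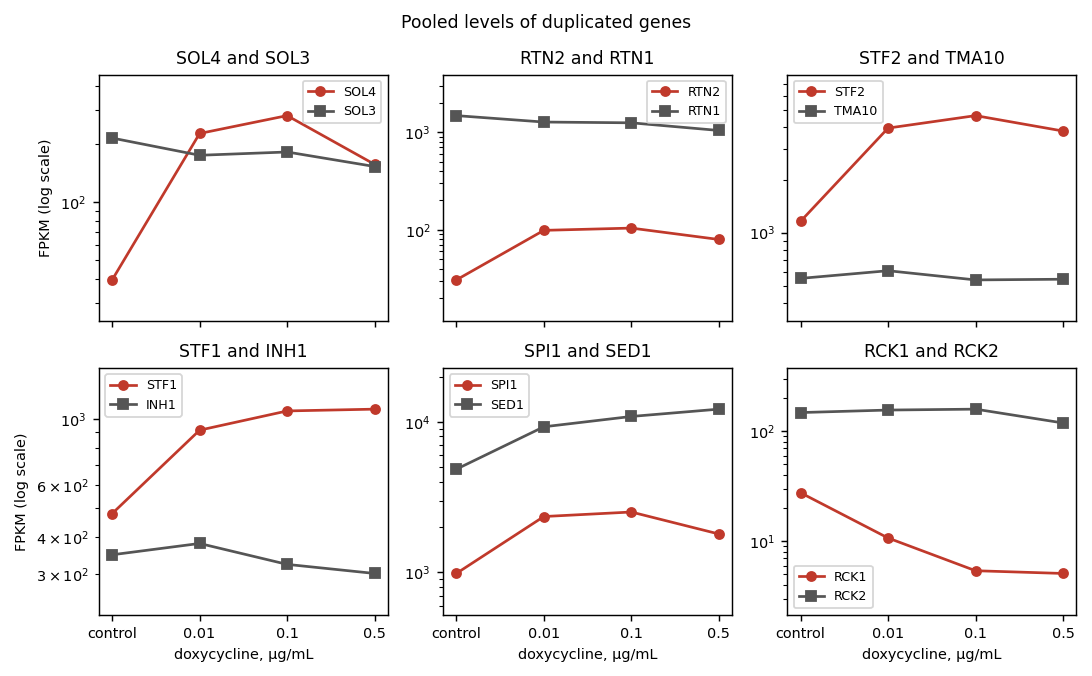
Pooled FPKM (log scale) of 6 pairs of duplicated genes in the control of the 0.01 µg/mL table and at the 3 doxycycline doses. The red line is a member and the grey line its paralog, of which TMA10 is also a member. SOL4 lies below SOL3 in the control and above it in the doxycycline groups, at 1.30, 1.54 and 1.03 times its level, while RCK1 lies farther below RCK2 than in the control.

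Genes upstream of Msn2 and Msn4 were compared from a list of 32, of which 31 had a level. They were called higher in 8, 12 and 7 cases and lower in 3, 3 and 7 cases, with medians of 0.17, 0.29 and -0.12. As shares these were 25.8%, 38.7% and 22.6% higher, against 8.75%, 17.6% and 7.49% of all tested genes, and 9.68%, 9.68% and 22.6% lower, against 15.4%, 20.4% and 38.9%. Relative to the median of all genes the upstream medians were 0.25, 0.31 and 0.18. Within the protein kinase A branch, which restrains Msn2 and Msn4, RAS1, an activator of the branch, fell at log2 fold changes of -0.78, -1.21 and -1.62, and PDE1, which breaks down cyclic AMP, rose at 0.92, 1.30 and 0.89. YAK1, a kinase that acts against protein kinase A, rose at 1.16, 1.54 and 1.02.

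Other genes that depend on Msn2 and Msn4 but are not members had higher medians than the members. All 18 such genes listed, of trehalose, glycogen and chaperone function and also of hexose phosphorylation (HXK1, GLK1), peroxide breakdown (CTT1) and other functions, were called higher at every dose, with medians of 1.92, 2.18 and 1.53. That list was written with earlier results of these data known, several of its chaperone genes are also Hsf1 targets, and its difference from the members was not tested. HSP42 and HSP104, a small heat-shock protein and a disaggregase gene, led it at 3.82 and 3.69 in the 0.01 µg/mL group, while the members' highest there was 2.53.

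**Figure D5:**
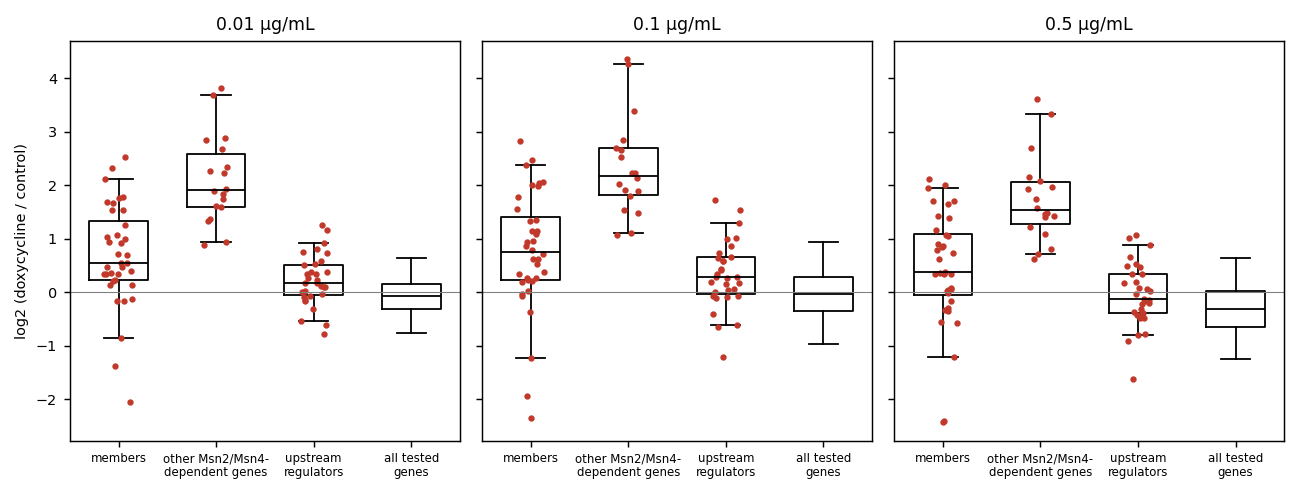
Log2 fold change (doxycycline over control) of the members, of 18 other Msn2- and Msn4-dependent genes, of 31 upstream regulators and of all tested genes, with 1 panel for each dose. Boxes span the quartiles with the median as a line, whiskers the 5th to 95th percentiles, and points are single genes. The members' medians are 0.54, 0.76 and 0.37 and those of all genes -0.08, -0.03 and -0.30.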

How the data were processed

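The 12 samples were placed in 4 groups by their titles. The submitters' processing notes name the build R64 and the tools Bowtie2, Cuffdiff and FastQC. Tool versions, settings, annotation and use of strand were not stated there. The 3 deposited tables each hold, per the file headers, 1 level for control and dose, a log2 fold change and a q-value per gene. The authors' levels were taken as FPKM from Cuffdiff's column names, since no unit is stated. The control, headed WT, was taken as the labels' control. A few lines per file (3 in each) came blank and were not used.

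Log2 fold changes were recomputed from the levels and differed from the deposited log2 values by at most 1.27e-05. Genes at 0 in either group or at q of 1 were treated as not tested. Calls rest on the authors' q-value below 0.05, adjusted over the whole table; levels are pooled, so no test per gene could be added, depth is unknown, and only the authors' replicate model stands behind a call. The counting was tested on made-up tables. Members, gene lists and roles were chosen with earlier results of these data known. Members given with levels at all doses by a set rule are MSN2, MSN4, those called lower at any dose and the 3 with the largest absolute mean change in each role. The other members were described after their values were seen. Motifs were searched in the RefSeq R64 genome with Python 3.11.15, and paralog identity came from global alignment (Biopython 1.88). Alternatives were a stricter q, a minimum of 2-fold, a filter at 10 FPKM, a pseudocount of 1, subtraction of the median of all genes and other motif settings.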

Additional observations from a re-analysis of the deposited data

How the results depend on the processing

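No paired analysis was possible because the tables hold 1 pooled level per group, and for the same reason no sample could be left out. Requiring at least 2-fold beside q below 0.05 left 12, 14 and 11 members higher at 0.01, 0.1 and 0.5 µg/mL (2.32%, 4.23% and 2.48% of all tested genes) and 3 lower at 0.5 µg/mL (10.1%). Counted as 2-fold from the median of all genes, 15, 14 and 16 were higher (2.63%, 4.35% and 4.24%) and 2 lower at 0.5 µg/mL (4.06%). With q below 0.01, 3 were lower at 0.5 µg/mL (29.8%). The other counts of members called stayed within 1.5 times. Of 108 values of single members, 6 lost their call at q below 0.01: USV1, HSP12 and PAI3 at 0.01 µg/mL, PEP4 at 0.1 µg/mL, and GND2 and NQM1 at 0.5 µg/mL. Taken relative to the median of all genes, 4 values of genes that were not called changed sign: TMA10 at 0.1 µg/mL to 0.00, and XBP1, DDR48 and TMA10 at 0.5 µg/mL to 0.14, 0.01 and 0.30. With a pseudocount of 1, 0 of the 108 values changed sign. In 250 bases before to 50 after the start, a window chosen after seeing the data, 22 of 39 members had an STRE core (56.4%, against 21.6% of all genes). The longer CAGGGG was found in 600 bases before 8 members (20.5%, against 8.06%).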

Other observations

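Several members share a chromosome, and some of these moved alike while others did not. On chromosome XIII in R64, ALD2 (601562 to 603082), DDR48 (608689 to 609981) and PAI3 (610159 to 610365) follow ALD3 (599352 to 600872). At 0.1 µg/mL ALD2 and PAI3 were called higher, at log2 fold changes of 0.73 and 0.87, and DDR48 was at 0.23 (q = 0.712 per the authors' deposited table). DDR48 and PAI3 are read toward each other, and whether the authors' counting used strand was not stated. GAD1 (770801 to 772558) and HOR7 (774752 to 774931), also on chromosome XIII, were both called higher at all 3 doses.

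On chromosome VII, SPG1 (962530 to 962817), SOL4 (985972 to 986739) and GND2 (1004624 to 1006102) lie in that order. Their log2 fold changes at 0.1 µg/mL were -1.23, 2.83 and -0.36. SPG4, the member with the largest fall at 0.01 µg/mL, lies on chromosome XIII (483014 to 483361), and RCK1 on chromosome VII (207033 to 208571). In the R64 annotation 0 of these genes overlap another annotated gene.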
